A study of Mus musculus with 12 samples.

Results

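Cdsn, Ogn, Atp2a3, Ugt1a6a, Akr1b7 and Dthd1 were 6 of the 55487 genes in the count tables of B16F10 cells, a mouse melanoma line. They were chosen by the total RNA itself, because each had few reads in cells with a control short hairpin RNA (shCtr) and more reads in cells with a hairpin against Osgep (shOSGEP) in all 3 replicate pairs. Their total RNA values are therefore given as a description, with no test. Ribosome-protected fragments (RPF), the short stretches of mRNA that a translating ribosome shields from nuclease, came from other libraries. They were not used to choose the genes. Library names carry the same number for RPF and total RNA of the same group and replicate, so both assays appear to come from the same cell samples. A change in a single culture would then show in both.

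The labels gave 12 libraries in 4 groups of 3: RPF and total RNA of shCtr cells, labelled WT, and RPF and total RNA of shOSGEP cells, labelled as OSGEP knockdown with hairpin number 2. All cells were transduced with lentivirus and selected with puromycin per the study's methods, which name 3 independent transductions for every experiment. A single hairpin was sequenced, so effects of that hairpin on other targets cannot be told apart from loss of Osgep. The total RNA libraries carry the label polyA RNA, and RPF were taken from cells whose ribosomes had been arrested with cycloheximide and captured with a puromycin analogue.

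The Osgep protein is the catalytic part of KEOPS, an enzyme complex that adds N6-threonylcarbamoyladenosine beside the anticodon of tRNAs pairing with codons whose first base is A (ANN codons). The 6 genes have no known place in that reaction, and most are best known from a tissue other than pigment cells. Cdsn encodes corneodesmosin, an adhesive glycoprotein that holds the dead outer cells of the epidermis together. Ogn encodes osteoglycin, a small leucine-rich proteoglycan of bone and connective tissue matrix. Atp2a3 encodes SERCA3, a pump that returns calcium from the cytosol to the endoplasmic reticulum. Ugt1a6a encodes a UDP-glucuronosyltransferase, an enzyme that links glucuronic acid to phenols so that they can be excreted, and it is a textbook target of the aryl hydrocarbon receptor. Akr1b7 encodes an aldo-keto reductase of the adrenal cortex and vas deferens that detoxifies aldehydes. Dthd1 encodes a protein with a death domain, a fold through which apoptosis and inflammation adaptors bind each other, and its own role is little known.

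The libraries themselves set limits on these genes. Total RNA libraries held 46.7 to 81.1 M counts (M for mega), and RPF libraries held 12.9 to 40.3 M, of which 4.42 to 17.0 M fell on protein-coding genes. Osgep was at 13.9, 15.7 and 15.3 counts per M (CPM, on library sizes scaled with the trimmed mean of M-values) in shCtr total RNA and at 0.589, 6.92 and 6.77 CPM in shOSGEP replicates 1, 2 and 3. Its level was thus lower in every shOSGEP library, with a log2 fold change of -1.65 ± 0.77 (SE, n = 3 per group, adjusted p = 0.975 by edgeR's quasi-likelihood test). In RPF, Osgep was at 7.72, 7.27 and 4.71 CPM in shCtr and at 4.87, 3.81 and 2.36 CPM in shOSGEP, so the groups overlapped and shOSGEP replicate 1 held the most of its group, with a log2 fold change of -0.84 ± 0.39 (SE, n = 3 per group, adjusted p = 1.00 by edgeR). The shOSGEP replicate 1 library of total RNA stood apart from the other two, with less Osgep and with 2738 CPM summed over 8 melanocyte markers against 13180 and 11821 CPM in shOSGEP replicates 2 and 3. All 8 of those markers were above 1 CPM in all 6 total RNA libraries, so the markers of the labelled cell type were present. The RPF library of shOSGEP replicate 1 stood apart too. Protein-coding genes held 15.6% of its counts, against 48.5% and 43.8% in shOSGEP replicates 2 and 3 and 29.8% to 48.6% in shCtr. Results below are therefore given pair by pair and also without replicate 1.

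The promoter windows of 3 of the genes are shown because the 6 genes had the same order of shOSGEP libraries and because these 3 cover the gene with most reads and the only genes with a motif match. They run from 250 bases before to 50 bases after a RefSeq start site on the plus strand of GRCm38.p6, with motif matches in capitals. The motifs searched on both strands were TATAAA (core promoter box of many tissue genes), TGACTCA (AP-1), TGACNNNGC (antioxidant response element), GCGTG (xenobiotic response element core), TGATGNAA (ATF4 composite element), the interferon-stimulated response element, CATGTG (core of the MITF M-box) and CACGTG (E-box).
Cdsn, chr17:35551878-35552177: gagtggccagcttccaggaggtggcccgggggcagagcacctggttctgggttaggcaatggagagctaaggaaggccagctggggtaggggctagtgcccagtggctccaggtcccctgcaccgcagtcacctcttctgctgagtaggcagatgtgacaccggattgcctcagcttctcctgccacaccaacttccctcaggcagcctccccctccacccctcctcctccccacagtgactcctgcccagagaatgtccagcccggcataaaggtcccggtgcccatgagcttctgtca
Ogn, chr13:49607765-49608064: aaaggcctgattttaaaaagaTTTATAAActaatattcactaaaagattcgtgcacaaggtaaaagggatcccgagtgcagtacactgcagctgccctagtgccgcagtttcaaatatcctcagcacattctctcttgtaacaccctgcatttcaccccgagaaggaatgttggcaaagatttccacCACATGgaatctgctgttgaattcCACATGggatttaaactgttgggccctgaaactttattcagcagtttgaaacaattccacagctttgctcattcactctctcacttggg
Dthd1, chr5:62811406-62811705: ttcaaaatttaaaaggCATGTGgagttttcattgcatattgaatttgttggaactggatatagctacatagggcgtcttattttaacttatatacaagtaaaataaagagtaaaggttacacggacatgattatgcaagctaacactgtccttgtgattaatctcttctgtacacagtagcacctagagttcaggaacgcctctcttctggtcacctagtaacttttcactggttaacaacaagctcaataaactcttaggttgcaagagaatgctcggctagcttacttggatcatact

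The capitals in the Ogn window mark overlapping TATAAA matches at -229 and -227, on opposite strands, and CATGTG matches at -63 and -39. The Dthd1 window held 1 CATGTG match, at -234. No match lay in either Cdsn window or in those of Ugt1a6a, Atp2a3 and Akr1b7. Of 32851 RefSeq promoter windows of the same length, 13.6% held TATAAA and 14.2% held CATGTG. The share was 5.20% for TGACTCA, 12.4% for TGACNNNGC, 32.4% for GCGTG, 3.97% for TGATGNAA, 3.44% for the interferon-stimulated response element and 7.15% for CACGTG. No motif was thus shared by more than 2 of the 6 genes. CpG dinucleotides numbered 25 in the Atp2a3 window and 3 to 8 in the others, against a median of 7 (quartiles 3 and 20) over all windows.

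Cdsn had the most reads of the 6 genes. It is ENSMUSG00000039518, on the plus strand of chr17:35552128-35557180 (GRCm38, GENCODE M21), where no other annotated gene overlaps it. Its total RNA counts were 171, 39 and 55 in shCtr replicates 1, 2 and 3, against 5423, 2292 and 2506 in shOSGEP. The groups did not overlap, and the shOSGEP libraries lay at 84.0, 29.6 and 42.3 CPM. The mean went from 1.58 ± 1.17 to 52.0 ± 28.5 CPM between the groups (SD, n = 3 in each), a 32.9-fold difference. In bulk RNA, more cells with the transcript and more transcript per cell cannot be told apart. Without replicate 1 the means differed 39.1-fold.

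Footprints on Cdsn were also more numerous in every shOSGEP library. RPF counts were 35, 2 and 17 in shCtr and 378, 172 and 203 in shOSGEP. In CPM this was 1.97, 0.121 and 0.341 against 31.2, 5.32 and 5.26, again with no overlap. The fitted log2 fold change was 4.12 ± 1.18 (SE, n = 3 per group), with an adjusted p of 1.00 by edgeR over all 13529 genes tested, so it did not pass the threshold of 0.05. With the replicate number as a block, the log2 fold change was 4.21 ± 0.35 and the adjusted p was 0.466. Without either replicate 1 library, it was 4.37 ± 0.60 with an adjusted p of 1.00. Leaving out shOSGEP replicate 1 alone gave the lowest value of any single library, 2.72.

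**Figure D1:**
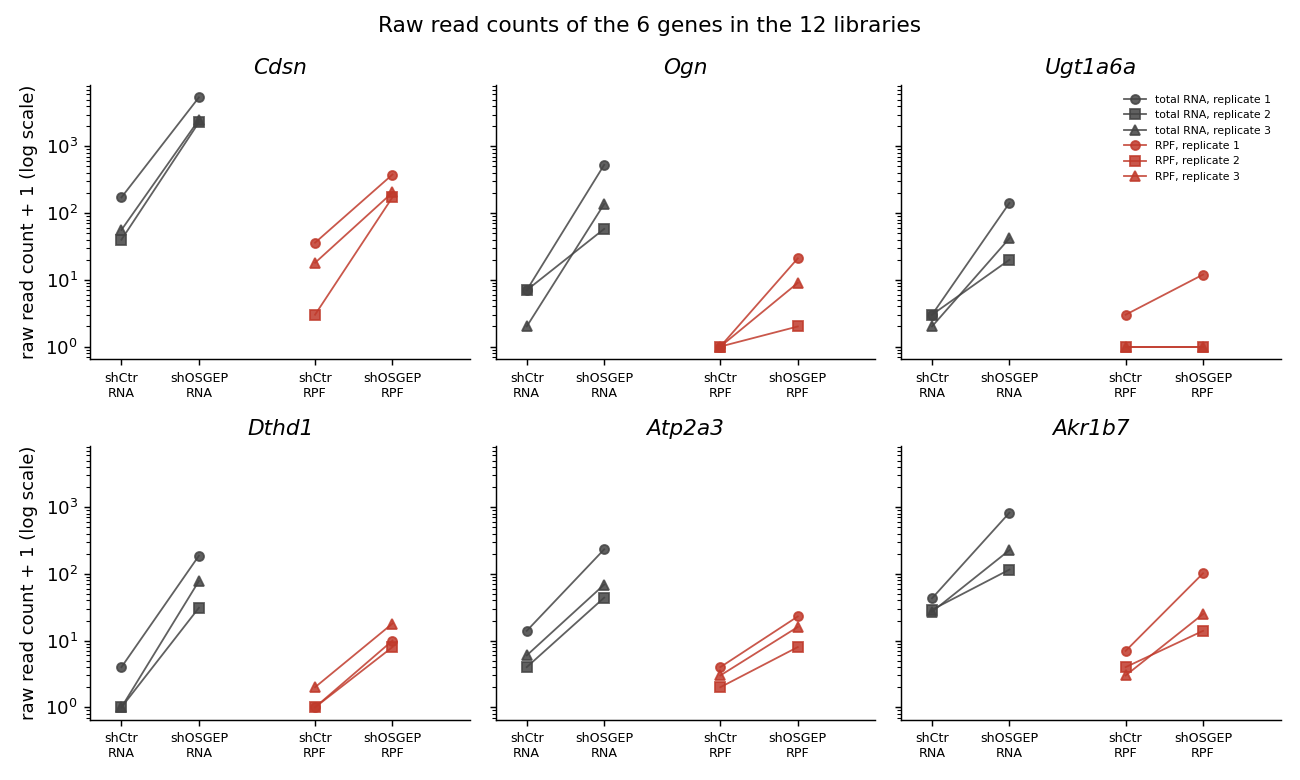
Raw read count plus 1 on a log axis for each of the 6 genes; each line joins the libraries of 1 replicate pair, grey for total RNA and red for RPF. All total RNA lines rise, Cdsn reaches 5423 total RNA counts and 378 RPF counts, and the Ugt1a6a RPF lines of replicates 2 and 3 lie flat at 0 counts.

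Ogn was close to absent in shCtr cells. The gene (ENSMUSG00000021390, plus strand of chr13:49608046-49624501) lies within the span of Cenpp, with no exon base in common. Its total RNA counts were 6, 6 and 1 in shCtr and 528, 57 and 136 in shOSGEP. The shOSGEP libraries held 8.18, 0.736 and 2.30 CPM, all above the shCtr libraries, whose mean was 0.0769 ± 0.0488 CPM (SD, n = 3). The fold between means was 48.6, and 23.6 without replicate 1. The ratio within a pair was 80.2, 6.81 and 111 in pairs 1, 2 and 3, the last against a single shCtr read. Its RPF counts were 0 in all 3 shCtr libraries and 20, 1 and 8 in shOSGEP. Taking 3 counts over the 3 shCtr libraries as the limit, the mean RPF level of 0.630 CPM in shOSGEP was at least 17.7-fold higher. Without replicate 1 the same bound was at least 2.64-fold, resting on 9 reads in all.

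Atp2a3, the calcium pump, is ENSMUSG00000020788 on the plus strand of chr11:72961169-72993044 and overlaps no other gene. Total RNA counts were 13, 3 and 5 in shCtr and 232, 43 and 68 in shOSGEP. The shOSGEP libraries held 3.59, 0.556 and 1.15 CPM, above every shCtr library, and the means differed 14.0-fold, or 10.8-fold without replicate 1. Its RPF counts were low but followed the same direction, at 3, 1 and 2 in shCtr and 22, 7 and 15 in shOSGEP. The groups did not overlap in CPM, and the RPF ratio between libraries of a pair was 10.7 (95% interval 3.23 to 56.1), 3.57 (0.459 to 161) and 9.70 (2.26 to 87.5). These intervals are exact binomial ones and cover counting error only; the interval of pair 2 includes 1.

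Ugt1a6a, the glucuronosyltransferase, is ENSMUSG00000054545 on the plus strand of chr1:88134809-88218997. Total RNA counts were 2, 2 and 1 in shCtr and 141, 19 and 41 in shOSGEP, and the groups did not overlap. The means were 0.0302 ± 0.0083 and 1.04 ± 1.02 CPM (SD, n = 3), a 34.4-fold difference, which was 16.5-fold without replicate 1. In this locus several first exons are spliced to the same last exons, and 50.3% of the exon bases of Ugt1a6a were shared with other genes on its strand, so its counts are uncertain. Of the 15 annotated genes that overlap it, only Ugt1a7c and Ugt1a6b had any total RNA read. Ugt1a7c held 86, 37 and 23 counts in shCtr and 20, 53 and 29 in shOSGEP, a log2 fold change of -0.81 ± 0.56. The reads of its neighbour in sequence, Ugt1a6b, numbered 4, all in shOSGEP replicate 1. Ugt1a6a was the member whose footprints did not follow in every pair, with RPF counts of 2, 0 and 0 in shCtr and 11, 0 and 0 in shOSGEP. The pair 1 ratio was 8.06 (95% interval 1.76 to 74.8).

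Akr1b7, the aldo-keto reductase, was the second most abundant of the 6. It is ENSMUSG00000052131 on the plus strand of chr6:34412334-34423142, and 27.2% of its exon bases lie under the antisense pseudogene Gm13857, which had 0 total RNA reads. Total RNA counts were 42, 28 and 26 in shCtr and 825, 115 and 226 in shOSGEP. The shOSGEP libraries held 12.8, 1.49 and 3.82 CPM, all above the 0.504 to 0.714 CPM of shCtr, and the means differed 10.3-fold, or 5.09-fold without replicate 1. RPF counts were 6, 3 and 2 in shCtr and 101, 13 and 24 in shOSGEP, with no overlap in CPM. The fitted RPF log2 fold change was 4.12 ± 1.46 (SE, n = 3 per group, adjusted p = 1.00 by edgeR), 2.37 ± 1.09 without either replicate 1 library and 1.53 without that of shOSGEP alone. Close paralogs stand beside it, and reads of near-identical copies may have been split or lost in counting. Those paralogs were far more abundant and moved little, with total RNA log2 fold changes of 0.09 ± 0.19 for Akr1b10, 0.19 ± 0.28 for Akr1b8 and 0.20 ± 0.19 for Akr1b3.

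Dthd1, the death domain gene, is ENSMUSG00000090326 on the plus strand of chr5:62813823-62888308 and overlaps no other gene. It had 3, 0 and 0 total RNA counts in shCtr and 186, 30 and 77 in shOSGEP, or 2.88, 0.388 and 1.30 CPM. The groups did not overlap. The means differed 89.6-fold, and without replicate 1, where both shCtr libraries were at 0, by at least 29.2-fold against 3 counts over those 2 libraries. RPF counts were 0, 0 and 1 in shCtr and 9, 7 and 17 in shOSGEP, the only member with its highest raw RPF count in replicate 3. In CPM the RPF libraries of shOSGEP lay at 0.743, 0.217 and 0.441, above all of shCtr.

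Whether footprints followed the RNA was then asked across the genes. In CPM, RPF were higher in shOSGEP in all 3 pairs for 5 of the 6 genes, against 15.6% of the 19184 genes with at least 10 RPF reads. For the same 5 genes every shOSGEP RPF library was above every shCtr library, against 3.41% of those genes. The exception was Ugt1a6a. Ogn, Dthd1, Atp2a3 and Ugt1a6a reached 10 RPF reads only through shOSGEP. They had 0, 1, 6 and 2 reads in shCtr and 29, 33, 44 and 11 in shOSGEP, in that order. A gene with so few shCtr reads that passes this limit is likely to be higher in shOSGEP. The shares over all genes are therefore not a like baseline, and no excess is read from them. The exact two-sided permutation test on RPF CPM gave p = 0.1 for each of the 5, the smallest p that 3 against 3 libraries allow, and p = 1 for Ugt1a6a (6 tests, none able to pass 0.05). By edgeR 0% of the 13529 RPF genes tested passed an adjusted p of 0.05, and 139 had an unadjusted p under 0.05. Only Cdsn and Akr1b7 of the 6 passed the filter on low counts and entered that fit. The other 4 had too few RPF reads, and the parts of library depth and of footprints per RNA in this were not tested. With that filter removed edgeR called 229 of 33633 genes, Cdsn and Akr1b7 among them, with adjusted p-values of 3.07e-11 and 0.00528. The reads of Cdsn were the same, and its SE went from 1.18 to 0.52 with this setting alone. The smaller p-values thus come from the setting and not from more data. DESeq2, with the filter kept, called 1 of 13529 genes, which was none of the 6.

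**Figure D2:**
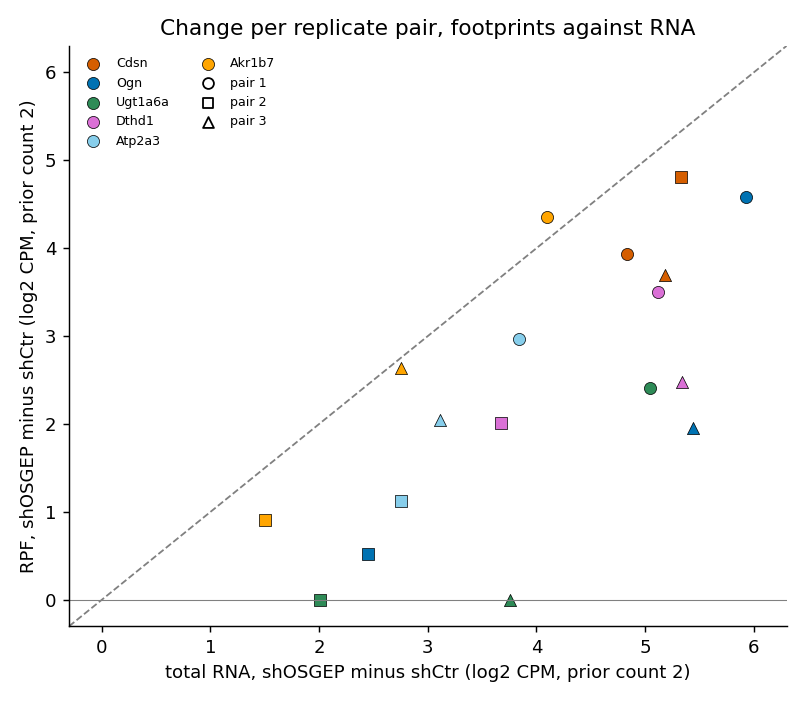
Difference in log2 CPM (prior count of 2) from shCtr to shOSGEP within a replicate pair, total RNA on the x axis and RPF on the y axis, with 1 point per gene and pair and a dashed line where both are equal. Of the 18 points 17 lie below the line, and Akr1b7 in pair 1 lies above it.

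The RPF difference was smaller than the RNA difference in 17 of 18 gene and pair combinations, by log2 CPM with a prior count of 2. The RNA difference also chose the genes, so it is likely to be the larger one, and the 18 combinations share genes and libraries. The count of 17 is therefore a description only. That prior pulls low counts toward no change, and RPF counts were the lower ones, so the raw ratios are given too. For Cdsn, which had enough reads in both assays, the pair 1 ratio between shOSGEP and shCtr was 28.9 (95% interval 24.8 to 33.8) in total RNA and 15.8 (11.2 to 23.1) in RPF. In pair 3 the Cdsn ratios were 37.2 (28.5 to 49.6) in total RNA and 15.5 (9.41 to 27.0) in RPF. In pair 2, with 2 shCtr RPF reads, the RPF ratio was 43.9 (up to 366) and its interval held the total RNA ratio of 42.1. These intervals cover counting error only and not the spread between replicate libraries, so they do not test whether the assays differ. Fitted over all 12 libraries, the change in RPF relative to RNA was -0.89 ± 1.33 for Cdsn and 0.81 ± 1.66 for Akr1b7 on the log2 scale (SE). With the cell sample (group and replicate number together) as a block these values were -1.03 ± 0.56 for Cdsn and 0.30 ± 0.79 for Akr1b7. That block compares RPF with RNA of the same cell sample and differs from the replicate block of the fits of 1 assay. The median over the 12560 genes fitted without the block was -0.0024.

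Footprints per RNA could be read in shOSGEP cells, where all 6 genes had RNA, though without a correction for length. Footprints fall mostly on coding sequence, and RNA reads on the whole transcript. Ogn has 298 codons in 2566 exon bases, and Dthd1 has 795 codons in 2427. Differences between genes in this ratio therefore hold their untranslated length too, and their ranks are a description only. In replicate 1 the ratio of RPF CPM to total RNA CPM was 0.371 for Cdsn, against a median of 0.370 over 12552 protein-coding genes with at least 10 total RNA reads. Ogn was lower at 0.202, on 20 RPF reads, and Akr1b7 higher at 0.652. Cdsn was at 0.180 in replicate 2 and 0.124 in replicate 3, above only 6.82% and 4.36% of the genes, whose medians were 0.376 and 0.378. At those medians 359 and 618 Cdsn footprints would have been counted, where 172 and 203 were. Ogn stood at 0.0420 and 0.0902 in replicates 2 and 3, with 1 and 8 footprints against 8.94 and 33.5 at the median ratio. Ugt1a6a had 0 footprints in replicates 2 and 3, where the median ratio would have given 2.98 and 10.1. Counting 0 reads allows a ratio of up to 0.378 in replicate 2 and 0.112 in replicate 3, so only the replicate 3 limit was below the median. Dthd1 and Atp2a3 stayed between 0.258 and 0.559 in all 3 replicates, on 7 to 22 footprints each. Atp2a3 held rank 2 and Cdsn rank 4 of the 6 in every replicate, and the others changed place. With 1 library per replicate, differences between replicates were not tested.

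**Figure D3:**
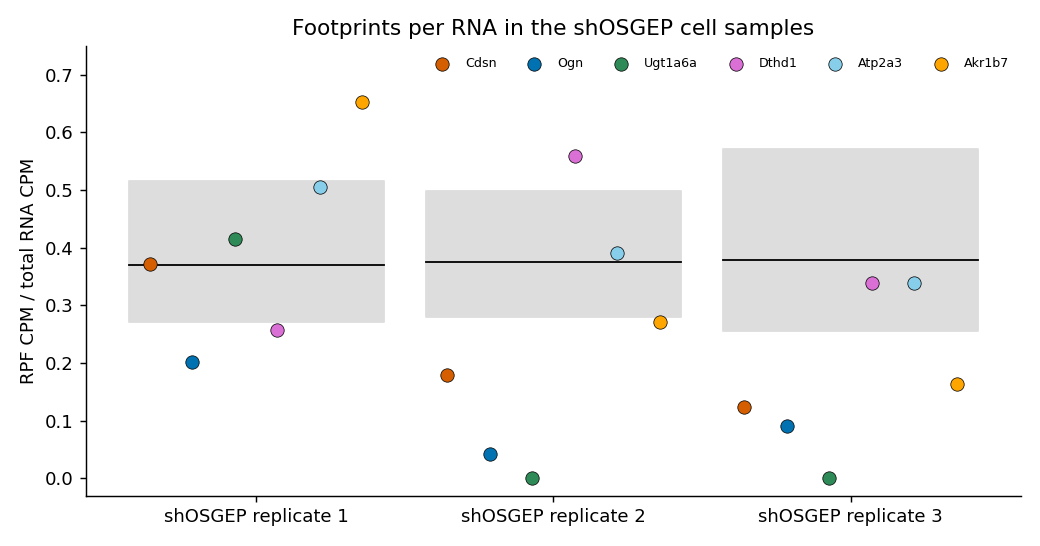
Ratio of RPF CPM to total RNA CPM of the 6 genes in each shOSGEP cell sample, with no correction for length. The grey band spans the quartiles and the black line the median over protein-coding genes with at least 10 total RNA reads. Cdsn is at the median of 0.370 in replicate 1 and under the band in replicates 2 and 3, and Ogn is under the band in all 3.

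The coding sequences of the 6 genes lay on both sides of the usual share of codons that the modified tRNAs read. ANN codons made up 26.9% of codons in Cdsn, 31.9% in Ogn, 24.7% in Atp2a3, 27.5% in Ugt1a6a, 29.1% in Akr1b7 and 32.3% in Dthd1. The median of 21596 protein-coding genes was 27.7%, with quartiles of 24.0% and 30.8%. Ogn and Dthd1 were above the upper quartile. In footprints per RNA Ogn was below the lower quartile of all genes in each of the 3 replicates. Dthd1 was below it in replicate 1 at 0.258, above the upper quartile in replicate 2 at 0.559 and between the quartiles in replicate 3 at 0.339. Cdsn, below the median ANN share, was also below the lower quartile in replicates 2 and 3, at 0.180 and 0.124. Akr1b7 was below it there too, at 0.271 and 0.163, and Ugt1a6a had 0 footprints in both. Atp2a3 lay between the quartiles in each replicate. These ratios are not corrected for length, and a link with the ANN share was not tested.

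Levels can be compared between genes only per length. Per kilobase of exon, shCtr total RNA was 0.591 CPM for Cdsn, 0.457 for Akr1b7, 0.0300 for Ogn, 0.0239 for Atp2a3, 0.00701 for Ugt1a6a and 0.00701 for Dthd1. The median over 13667 protein-coding genes was 5.12 CPM per kilobase, and Cdsn, the highest of the 6, was above 23.1% of them. In shOSGEP cells Cdsn reached 19.4 CPM per kilobase, above 82.0% of those genes, and Akr1b7 reached 4.71, above 46.7%. The other 4 lay between 0.241 for Ugt1a6a and 1.46 for Ogn, above 17.1% to 28.2% of the genes. All 6 genes were thus below the median gene in shCtr, and Cdsn alone was above it in shOSGEP. The shOSGEP order of Cdsn, Akr1b7, Ogn, Dthd1, Atp2a3 and Ugt1a6a was the same in every shOSGEP library of total RNA. Each gene after Akr1b7 differed from the one before it by less than the SD of the latter. That SD is a spread between libraries that the genes share, so it does not measure how firm the order is.

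The 6 genes varied across the shOSGEP libraries in a common order. Total RNA CPM of each was highest in replicate 1, lower in replicate 3 and lowest in replicate 2. Apart from Cdsn, replicate 2 held at most 15.5% of the replicate 1 level and replicate 3 held 28.1% to 45.1%. Cdsn was more even, at 35.2% and 50.4%. Osgep total RNA was lowest in replicate 1 and about equal in replicates 2 and 3. Osgep RPF went the other way, at 4.87 CPM in replicate 1 against 3.81 and 2.36 CPM in replicates 2 and 3. The summed melanocyte markers of total RNA were lowest in replicate 1. The part of any of these in the order was not tested. Over the 6 total RNA libraries, Pearson's r of log2 CPM between members ran from 0.914 (Cdsn and Akr1b7) to 0.992 (Ogn and Ugt1a6a), with a median of 0.972 over 15 pairs. These correlations share libraries, and genes chosen for the same direction must correlate, so they are a description only.

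Among 14510 other genes of the total RNA fit, those most like each member by r over the 6 libraries mostly differed less between the groups. For Cdsn they were 4931415C17Rik (r = 0.973), Gm19410 (0.972) and G0s2 (0.967), a lipolysis inhibitor. Gm6556, 6030443J06Rik and Ddr2, a collagen receptor, were the 3 most like both Ogn and Ugt1a6a, with r of 0.979 to 0.999. For Dthd1 they were Gm6556 (0.985), 4931415C17Rik (0.979) and 6030443J06Rik (0.976). Atp2a3 was followed most closely by 1700010I14Rik (0.989), Adh7 (0.989), an alcohol and retinol dehydrogenase, and Cars (0.987), the cysteinyl-tRNA synthetase. Akr1b7 was followed by Habp4 (0.990), Gm15663 (0.989) and 1700010I14Rik (0.986). Ddr2 went from 155 to 163 CPM in shCtr to 185 to 264 CPM in shOSGEP, a far smaller step than that of Ogn. Adh7 went from 6.65 to 11.7 CPM in shCtr to 13.3 to 33.2 CPM in shOSGEP, with no overlap.

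Other genes met the same description. With few reads set as a mean under 2 CPM in shCtr total RNA and the rise set as more than 1 on the log2 scale in each pair, 89 of 7521 low genes, or 1.18%, qualified. The 6 genes were all among them, and 66 of the 89 were protein-coding. The mirror description, low in shOSGEP and lower by more than 1 in each pair, held for 19 of 7300 genes. By the smallest of its 3 pair differences Cdsn had rank 1 with 4.84, Dthd1 rank 3 with 3.67, Atp2a3 rank 4 with 2.76, Ogn rank 7 with 2.45, Ugt1a6a rank 12 with 2.01 and Akr1b7 rank 31 with 1.50. The gene just inside the threshold was P2rx5, at 1.01, and the one just outside was Rph3a, at 0.99. The rise was largest in pair 1 for 52 of the 89 genes, in pair 2 for 19 and in pair 3 for 18.

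The genes ranked beside the 6 were of mixed kinds. Gm45234, at rank 2, had 0 total RNA reads in shCtr, 27, 74 and 29 in shOSGEP and 0 RPF reads in all 6 libraries. Lcn2, the iron-siderophore binding lipocalin, had 20, 0 and 7 total RNA reads in shCtr and 5805, 14 and 100 in shOSGEP, with a pair 1 difference of 7.91 against 2.70 and 3.28 in pairs 2 and 3. Cyp1a1, like Ugt1a6a a textbook target of the aryl hydrocarbon receptor, went from 71, 6 and 6 reads to 811, 60 and 51. The others of the first 10 were Sh2d6, Gm19410 and Apobr, an apolipoprotein B receptor, with smallest differences of 2.20, 2.10 and 2.08. In the mirror group the smallest differences were 1.46 for Gm44502, 1.42 for Ushbp1 and 1.28 for Gm47508. No gene there came near the size of Cdsn.

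**Figure D4:**
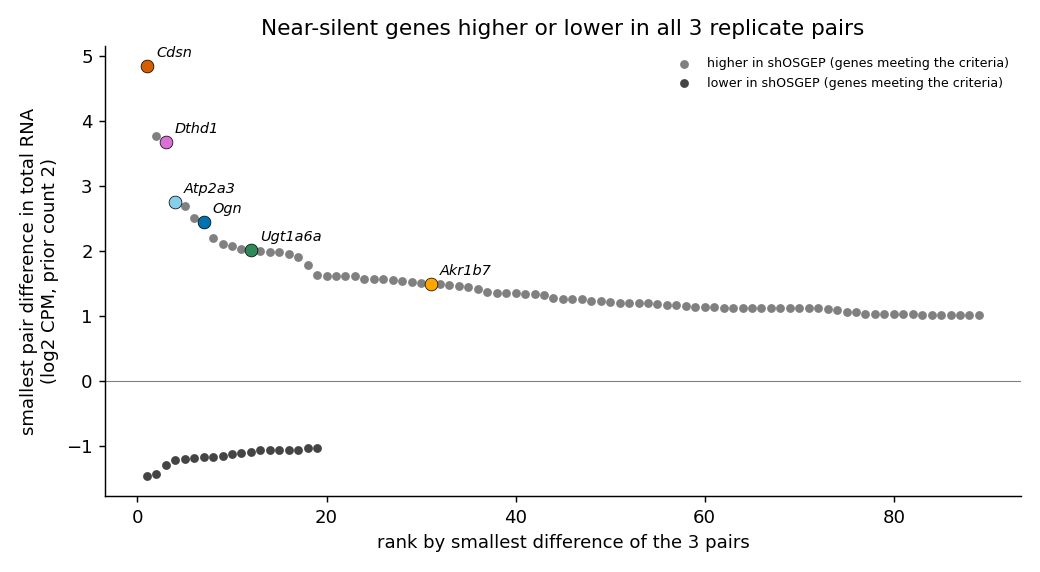
Smallest of the 3 pair differences in total RNA (log2 CPM, prior count of 2) of the 89 genes that were low in shCtr and higher in shOSGEP and, below 0, of the 19 genes of the mirror description, by rank. The 6 genes are coloured; Cdsn has rank 1 at 4.84 and Akr1b7 has rank 31 at 1.50.

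Footprints of the other genes of this description were counted in the same way. Of the 83 that were not members, 60 had at least 10 RPF reads, and 29 of those were higher in RPF in all 3 pairs, against 15.6% of all genes with as many reads. In 14 of the 60 the RPF libraries of the groups did not overlap, against 5 of the 6 members and 3.41% of all genes. Here too the shares over all genes are not a like baseline, since genes low in shCtr can reach 10 reads mainly through shOSGEP. The 6 genes were picked with earlier results of these data known, so no difference between them and the other 60 was tested.

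The total RNA contrast that chose the genes gave few calls. In total RNA 0% of 14516 genes passed an adjusted p of 0.05 by edgeR, with 259 at an unadjusted p under 0.05, and with the replicate block 1 gene passed, which was Cdsn. DESeq2 called 8 genes, the 6 and also Gm19410 and Gm45234. Since that contrast chose the genes, nothing is read from these counts beyond how they were chosen.

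The genes around each member were looked at next, 3 protein-coding genes on either side. Of these 36 genes, 23 had enough total RNA reads for the fit, 15 with a positive and 8 with a negative log2 fold change. The median was 0.20, against 0.02 over all genes, and the range was -0.44 (Tcf19, a nuclear factor beside Cdsn) to 1.13 (P2rx1, an ATP-gated channel 6.1 kb from Atp2a3). No neighbour passed an adjusted p of 0.05 by edgeR, 1 had an unadjusted p under 0.05, and none was higher by more than 1 on the log2 scale in all 3 pairs. P2rx1 had 50, 14 and 50 reads in shCtr and 198, 42 and 63 in shOSGEP, with differences of 1.81, 1.01 and 0.04 in pairs 1, 2 and 3. Arap2, 47.7 kb from Dthd1, was the one with the small unadjusted p, at 0.97 ± 0.39. The nearest genes of Cdsn, Psors1c2 and 2300002M23Rik, had 0 to 8 and 0 to 1 reads per library. Omd and Aspn, proteoglycan genes of the Ogn cluster, had 1 and 4 reads in all 6 libraries together. Cenpp, the centromere protein gene around Ogn, was at -0.38 ± 0.47. The size of the members' change was therefore not seen in the neighbours that could be fitted.

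**Figure D5:**
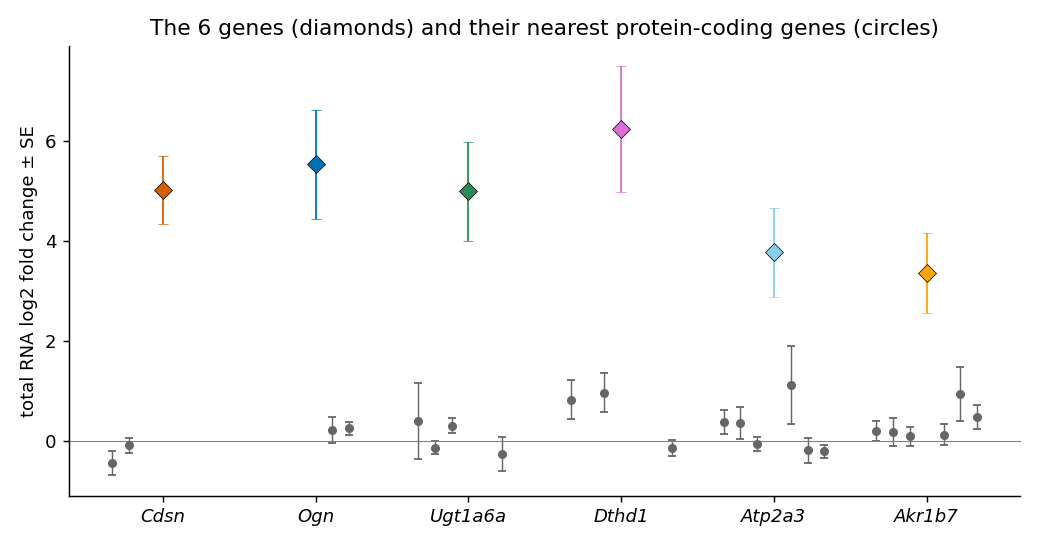
Fitted total RNA log2 fold change with SE of the 6 genes (diamonds) and of those of their 3 nearest protein-coding genes on either side that entered the fit (circles, in genome order). The circles lie between -0.44 and 1.13 and the diamonds between 3.36 and 6.24; the value of Dthd1, with 2 shCtr libraries at 0, depends on the prior count.

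Genes that share a family, structure, process or protein domain with a member were read from 6 lists. Of 28 genes of cornification and desmosomes, only 3 had enough total RNA reads and 12 had none. Pkp2, a desmosomal plaque protein, was at 1.13 ± 0.95 and Sfn, an epithelial 14-3-3 protein, at 0.78 ± 0.39, with Jup at -0.35. The rest, with the cornified envelope genes Lor and Ivl at 0 reads, were too low to fit. Of 16 other small leucine-rich proteoglycans 4 were fitted, 2 up and 2 down, with a median of -0.01. Optc, an eye proteoglycan, was at 3.45 ± 1.13, and Fmod, the collagen-binding fibromodulin, was at -1.66 ± 0.60; these were the 2 of that list with an unadjusted p under 0.05. Optc differed by 3.90, 0.80 and 2.36 in pairs 1, 2 and 3.

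The lists of enzymes, calcium stores and death domain genes were read in the same way. Of 24 glucuronidation genes 5 were fitted, 1 with a positive and 4 with a negative change, with a median of -0.10. The largest change was that of Ugt1a7c, given above, followed by Gusb, the lysosomal glucuronidase, at -0.26 ± 0.25. Of 16 other aldo-keto reductases 9 were fitted, 6 positive and 3 negative, with a median of 0.19, Akr1c12 at 0.68 ± 0.76 and Akr1c13 at 0.39 ± 0.22. Of 25 calcium store genes 17 were fitted, 9 positive and 8 negative, with a median of 0.004. There the ryanodine receptor Ryr3 was at 1.43 ± 0.82 and the plasma membrane pump Atp2b4 at 1.30 ± 0.91, with differences between -0.14 and 0.36 in pairs 2 and 3. Of 31 death domain genes 25 were fitted, 17 positive and 8 negative, with a median of 0.08. Fas, the death receptor, was at 3.21 ± 1.60 with differences of 3.50, 0.15 and 1.20 in pairs 1, 2 and 3, and Unc5b, a netrin receptor, was at 1.31 ± 0.44. No gene of the 6 lists passed an adjusted p of 0.05 by edgeR in total RNA or RPF, and 3 in total RNA had an unadjusted p under 0.05. In RPF the list medians were 0.95, -0.03, -0.20, 0.39, -0.11 and 0.12 in the order of cornification, proteoglycans, glucuronidation, aldo-keto reductases, calcium and death domain, against 0.05 over all genes.

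Markers of other cell types in which the members are usual were at or near 0 for keratinocytes and for adrenal and gut epithelium, low for blood cells and present only in part for fibroblasts. All 8 keratinocyte markers were under 1 CPM in every total RNA library, Krt5, Krt10, Lor and Ivl had no read, and their sum was 0.0413 to 0.0901 CPM in shCtr and 0.0338 to 0.124 CPM in shOSGEP. The 7 adrenal and gut epithelium markers summed to 0.883 to 0.971 CPM in shCtr and 0.775 to 0.992 CPM in shOSGEP, all 7 under 1 CPM, with Cdx2, Fabp2 and Epcam at 0. The 8 fibroblast markers summed to 106 to 186 CPM in shCtr and 40.2 to 128 CPM in shOSGEP, mostly through Fbln1, with 3 of the 8 above 1 CPM in all 6 libraries and Col3a1 at 0. Of the 8, 4 were under 1 CPM in every library. The sum was lowest, at 40.2 CPM, in shOSGEP replicate 1, where Ogn total RNA was highest. The part of fibroblast markers in the Ogn values was not tested. The 8 haematopoietic markers summed to 1.33 to 1.49 CPM in shCtr and 1.15 to 2.23 CPM in shOSGEP, with Cd3e and Itgam at 0. The largest was Lyz2, at 1.32 CPM in shOSGEP replicate 1. In shOSGEP replicates 1, 2 and 3 the haematopoietic sum was 2.23, 1.15 and 1.57 CPM. The adrenal and gut sum was 0.992, 0.775 and 0.828 CPM, and the keratinocyte sum 0.124, 0.0388 and 0.0338 CPM. Each of these sums was highest in replicate 1, where total RNA of the 6 genes was highest too. The part of these markers in the members' values was not tested. Cdsn was at 29.6 to 84.0 CPM in the shOSGEP libraries, where the keratinocyte markers summed to 0.0338 to 0.124 CPM. The source of the Cdsn reads was not tested.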

How the data were processed

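Ribosome profiling and total RNA libraries of shCtr and shOSGEP B16F10 cells were analysed from 2 deposited tables of whole-number read counts per Ensembl gene, which the authors had made without normalisation. Their notes name FastQC 0.11.9, Trim Galore 0.6.6, Cutadapt and STAR, and both GRCm38 and GRCm39. The study's methods name Salmon for quantifying total RNA, and for RPF they give both an alignment to the coding transcriptome, of which perfect matches were kept, and another to the genome. Whether the deposited tables came from those steps is not given in the sources used here; the RPF table also holds reads on genes that are not protein-coding. The use of strand and the handling of reads with several matches in these tables, which bear on Ugt1a6a and Akr1b7, are not given either. Symbols and coordinates came from GENCODE M21 on GRCm38, in which 55141 of 55487 gene IDs were found, and promoters of all 6 genes from RefSeq.

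The members, gene lists and criteria were chosen with earlier results of these data known. Named beside the members were Osgep, the 3 genes most like each member, the 2 list genes with the largest change, neighbouring genes, and the first 10 and 3 genes of the ranked low genes. Counts were fitted in edgeR 4.0.16 (R 4.3.3) by its quasi-likelihood test, after filterByExpr, with TMM scaling and Benjamini-Hochberg adjustment over all genes. RPF and total RNA were fitted apart, and RPF relative to RNA as the interaction of assay and group. Exact tests and intervals used SciPy 1.17.1. Log2 CPM used a prior count of 2, and fits were tested on simulated data.

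Whether replicate numbers pair the samples was checked by correlating over genes how far libraries that share a number lie from the mean of their own group. For replicates 1, 2 and 3 the correlation was 0.59, 0.51 and 0.66 (RPF) or 0.52, 0.54 and 0.29 (total RNA), each over 0.1, so a fit with the replicate block was an alternative, with DESeq2 1.42.0, RLE size factors, no filter on low counts, a prior count of 0.5 and fits without each library. No replicate was a copy of another, since chi-square per degree of freedom was at least 81.1.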

Additional observations from a re-analysis of the deposited data

How the results depend on the processing

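Fits without each library called 0 genes in both assays, as did RLE size factors. DESeq2 called 8 genes in total RNA and 1 in RPF, the replicate block called 1 in total RNA, and RPF without the low-count filter called 229. That filter decided the RPF calls of Cdsn (log2 4.01) and Akr1b7 (3.97), both past the threshold only without it. Fits without 1 library ranged from 4.48 to 5.82 (Cdsn), 5.37 to 9.54 (Dthd1) and 2.71 to 4.47 (Atp2a3) in total RNA, and without both replicate 1 libraries, an alternative chosen after seeing the data, Cdsn was at 5.29 and Dthd1 at 8.66. The values of Dthd1 depend on shCtr libraries at 0; its mean RPF pair difference was 4.24 with a prior count of 0.5 against 2.66. The change in RPF relative to RNA ranged from -1.71 to -0.12 (Cdsn) and from -0.53 to 1.47 (Akr1b7) without 1 replicate of a group, with the lowest values without shOSGEP replicate 1. It was 0.30 for Akr1b7 with the cell sample as a block. The replicate block changed no RPF call. Low genes higher in each pair numbered 378 (mirror 145) with a limit of 0.5, 13 (mirror 0), 5 of them members, with a limit of 2, and 229 (mirror 46) with a prior count of 0.5. The mirror count was 10 among protein-coding genes and 7 with at least 30 reads. No member's RPF or total RNA change turned direction in these alternatives, though the mean RPF pair difference of Ugt1a6a was 0 without replicate 1. Causes beyond the settings' own construction were not tested.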
